A study of Danio rerio with 8 samples.

Results

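The 4 control samples of a zebrafish heart array series are described here as a baseline, that is, by the level of each transcript in hearts that received no drug. They are 4 of 8 arrays and were chosen by their label alone. Control larvae were kept in the vehicle, which the labels do not name further, from 72 to 96 hours post-fertilization, and hearts were taken at 4 days post-fertilization (dpf). The other 4 arrays hold hearts of larvae kept in 1 uM sorafenib, a kinase inhibitor used against cancer, over the same hours. All larvae were raised in egg water, and the labels give no strain, transgene or genotype for either group. How many hearts were pooled for a sample is not given in the sources used here. Each sample counts as an experiment of its own in the series' design, 4 to a group.

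At this age the zebrafish heart is a small pump of an atrium and a ventricle in series, with the bulbus arteriosus as its outflow vessel. Its wall consists of cardiomyocytes, lined inside by endocardium and covered outside by the forming epicardium, and valves are taking shape between the chambers. Cardiomyocytes contract through sarcomeres, in which thick filaments of myosin slide along thin filaments of actin, troponin and tropomyosin when calcium is released. The heart lies close under the head, between the pharyngeal arches, the yolk and the liver.

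A level is the log2 of a probe's processed signal, from which the 75th percentile over all probes of that array was subtracted, so 0 is the signal at that percentile and 1 unit is a 2-fold difference in signal. For a named gene the brightest of its probes is given. Where 4 values are listed, they belong to control replicates 1, 2, 3 and 4 in that order, and an error is the SD over these 4 arrays. Signal also depends on the probe itself. Among 2638 genes with more than 1 probe above background, the brightest and dimmest probe of a gene lay a median of 2.05 log2 units apart, and in 937 of them (35.5%) over 3 units apart. The citrate synthase gene cs read 6.06 with its brightest probe and lay 9.40 higher than with its dimmest. Ranks therefore order probes by brightness and are not an order of transcript numbers. Below, the gap between probes is given for a few genes only. Other genes named there also have wide gaps, such as 7.73 for per1b and 7.43 for hspa8.

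Each array carried 43603 different probes besides controls. Between 55.4% and 59.5% of spots on a control array were well above background, and 0 were saturated. With 4 arrays, their number sets how precise a mean can be. Well above background on all 4 control arrays were 22690 probes (52.0%). Of these, 11677 were named and stood for 8498 genes, which is 80.7% of the 10536 genes named on the array. Another 792 genes passed on some control arrays only and 1246 on none. On all 4 sorafenib arrays as well, 21382 of the 22690 probes (94.2%) were well above background.

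Control replicate 1 was often the highest array among the most variable genes. It held the highest value of the 4 for 77 of the 100 most variable named genes, against 39.6% of all 8498 genes. Digestive enzyme genes led that group. The 100 genes were picked by their SD over these same 4 arrays. An array with large deviations therefore fills such a list by construction, and the count is no test of that array. Control replicate 4 held the lowest value for 40.2% of all genes, and the median gene deviated from its own mean by 0.08 in replicate 1 and by -0.09 in replicate 4. Correlations across the 22690 probes, which share one array design, were 0.973 to 0.986 between pairs of control arrays, lowest between replicates 1 and 4.

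All 11 markers of heart muscle were well above background on all 4 control arrays, as were 80.7% of all genes named on the array. Passing background therefore does not test the label of the tissue. The median level of the markers was 2.34, against 4.12 for skin and pharyngeal epithelium genes and 4.81 for fast skeletal muscle genes. Highest of the 11 markers stood actc1a, cardiac alpha-actin, with 7.0, 6.96, 6.62 and 6.53 (6.78 ± 0.24, rank 156 of 8498). The light chain gene cmlc1 read 6.13, 6.51, 6.16 and 5.47, and myl7, the regulatory light chain of both chambers, read 5.47, 5.68, 5.50 and 4.91. Both were lowest in replicate 4 and highest in replicate 2. The cardiac troponin T gene tnnt2a, whose loss gives the silent heart mutant, followed with 3.47, 3.88, 3.43 and 3.02. The troponin I gene tnni1b read 2.34 ± 0.38 and tpm4a, a tropomyosin, 4.71 ± 0.31.

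Both chambers were represented among the markers. The atrial myosin heavy chain gene myh6 read 0.73, 1.21, 0.98 and 0.31, and the ventricular one, listed as myh7 and long known as vmhc, read 1.23, 2.26, 1.92 and 1.88. Replicate 1 was the lowest for myh7 whereas replicate 4 was the lowest for myh6. The atrial natriuretic peptide gene nppa read 1.52, 1.34, 1.03 and 1.18. The cardiac homeobox gene nkx2.5 was the dimmest marker with -0.53, -0.03, -0.14 and -0.98. Of the 11 markers, 9 were highest in replicate 2 and 9 lowest in replicate 4, against 23.9% and 40.2% of all 8498 genes. A range over 2-fold was found for 3 markers (27.3%), against 13.6% of all genes. These 3 lay just over that limit, from 2.01-fold for tnnc1a to 2.06-fold for cmlc1. The summed signal of the 11 markers was 0.301%, 0.387%, 0.325% and 0.272% of the total in replicates 1 to 4. On the sorafenib arrays it was 0.330% to 0.494%. Here and below, the total is that of the 8498 genes above background on all 4 control arrays, with 1 probe per gene. Genes and probes were chosen on control arrays alone, so shares on sorafenib arrays are not an even comparison of the groups. In bulk samples, fewer cells of a type and less RNA per cell cannot be told apart.

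**Figure D1:**
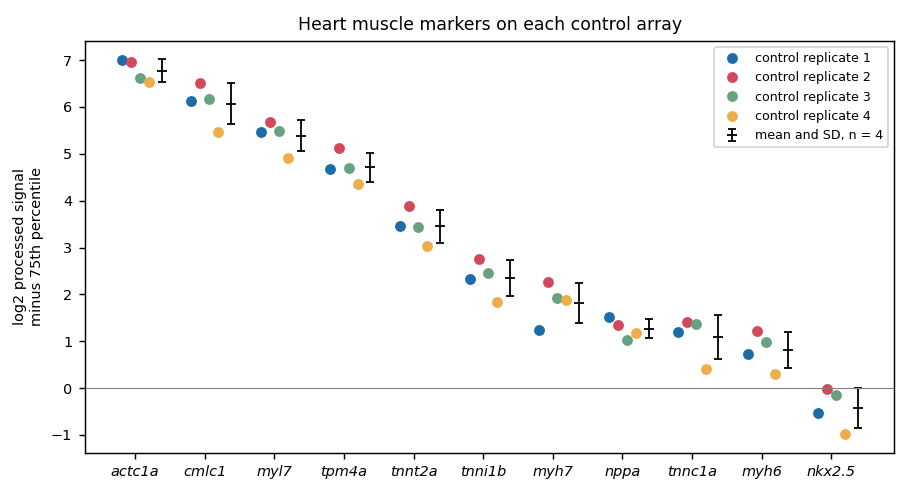
Level of the 11 heart muscle markers on each control array, as log2 processed signal relative to the 75th percentile, with a point per replicate and the mean and SD (n = 4) in black. Replicate 2 is the highest point for 9 markers and replicate 4 the lowest for 9, with means from 6.78 for actc1a to -0.42 for nkx2.5.

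The brightest named probes belonged mostly to the machinery of protein synthesis. Of the 30 highest named genes, 16 encode ribosomal proteins by the list used here, led by rps2 with 9.53, 9.28, 9.13 and 9.23 (9.29 ± 0.17). Behind it came rpsa, a small-subunit protein outside that list, with 9.60, 9.11, 9.02 and 8.99. The elongation factor gene eef2b read 8.91, 8.83, 8.41 and 8.63 (8.70 ± 0.22). Other members of the 30 were fth1a, the heavy chain of the iron store ferritin (8.35 ± 0.27), the chaperones hsp90ab1 (8.44 ± 0.31) and hspa8 (8.16 ± 0.30), and rack1, a scaffold on the ribosome (8.24 ± 0.23). The mitochondrial ADP/ATP carrier slc25a5 read 8.08 ± 0.31. Members of the skin and pharyngeal epithelium list, the keratin genes krt4 and krt8, also reached this group. So did the fast muscle troponin T gene tnnt3b. Neighbours in this order were within 1 SD of each other in all 29 pairs, whereas the ends were apart, since the lowest value of rps2 (9.13) lay above the highest of tubb4b (8.25), a tubulin gene at rank 30. Between 26.8% and 30.1% of the summed signal of named genes came from the 100 highest.

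Ribosomal protein genes had the highest median of the 36 gene lists used. All 76 measured members were above background, against 80.7% of all named genes. Their median level was 7.43, against 1.14 for all 8498 genes. Of the 76, 71 (93.4%) lay among the 500 highest, a group that holds 5.88% of genes. In order of brightness rps14 read 8.93 ± 0.27, rps25 8.88 ± 0.37 and rpl8 8.53 ± 0.20. Their share of the summed signal was 16.0% to 18.2% on control arrays and 13.9% to 20.3% on sorafenib arrays. Replicate 1 held the highest value for 58 of the 76 and replicate 4 the lowest for 59, a shift of 0.29 and -0.22 at the median. Over all 8498 genes these shares were 39.6% and 40.2%, with shifts of 0.08 and -0.09. Translation factors had a median of 3.20 over 67 genes, with eef1g at 7.93 ± 0.25 and eef1a1l1 at 7.69 ± 0.25. Mitochondrial ribosomal proteins had a median of 2.63 over 56 genes, and only mrpl20, at 7.94 ± 0.16, reached the 500 highest. Proteasome subunits had a median of 4.05 over 45 genes, led by psma4 with 6.28 ± 0.20, and their median SD of 0.16 was below the 0.25 of all named genes. Measured members of the proteasome list that missed background on some or all control arrays were psmb8a and psmb13a, immunoproteasome-type subunits, and psmb11a.

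**Figure D2:**
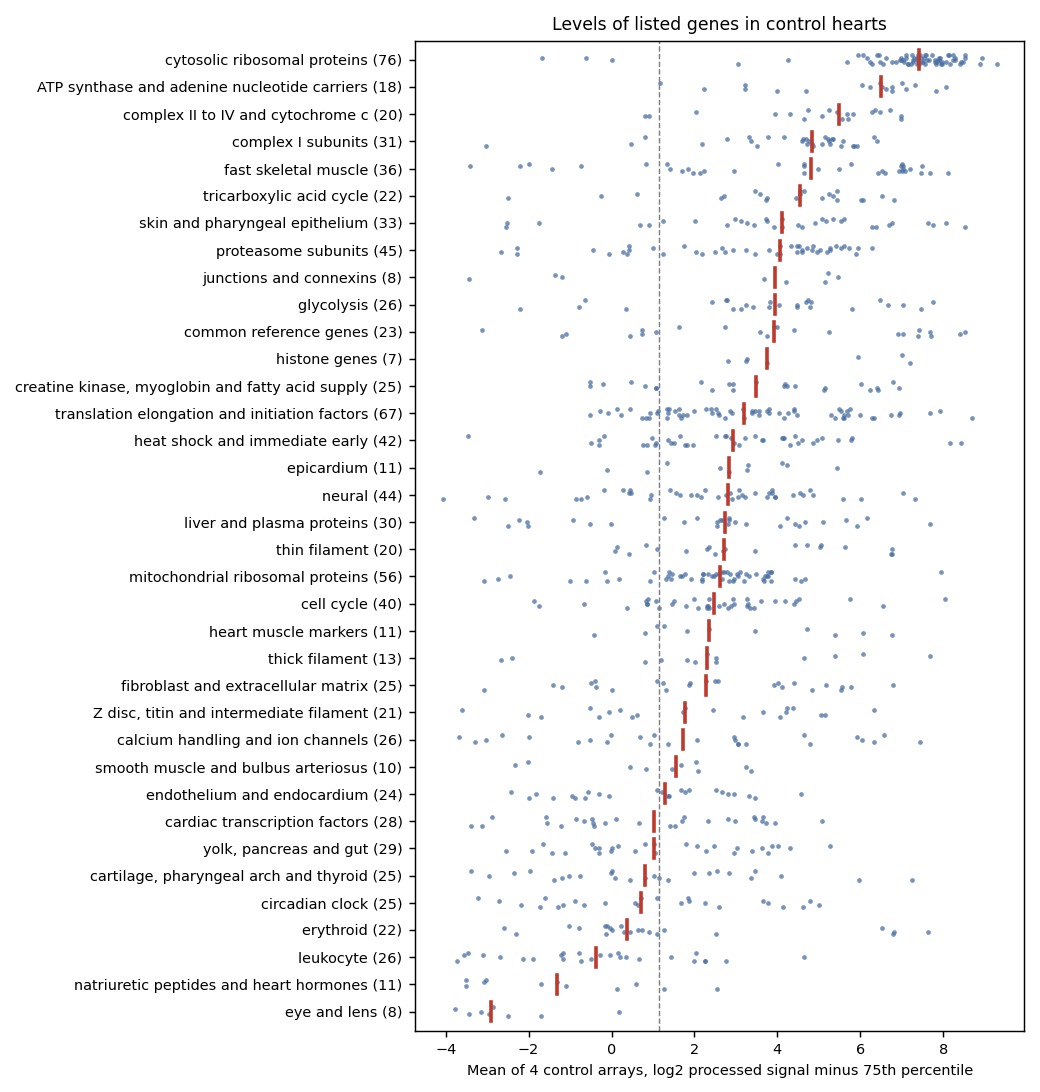
Mean level of each listed gene over the 4 control arrays, as log2 processed signal minus the 75th percentile, with a blue point per gene, a red bar at the median of each list and a dashed line at the median of all named genes (1.14). Numbers in brackets are genes above background on all 4 arrays. Medians run from -2.90 for eye and lens to 7.43 for cytosolic ribosomal proteins.

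Energy metabolism was represented at high levels on all 4 arrays. ATP synthase subunits and adenine nucleotide carriers had a median of 6.50 over 18 genes. Of the 18, 12 were among the 500 highest, a group that holds 5.88% of all genes. The catalytic beta subunit atp5f1b read 8.14, 7.80, 7.72 and 7.61. Complexes II to IV with cytochrome c had a median of 5.49 over 20 genes, and the cytochrome oxidase subunits cox7c and cox4i1 both read 6.98, with SDs of 0.25 and 0.23. Complex I, the entry point for NADH, had a median of 4.85 over 31 genes, from 6.41 ± 0.15 for ndufs1 to -3.04 ± 0.45 for ndufa1. In all 3 lists most members were highest in replicate 1, namely 15 of 18, 16 of 20 and 24 of 31. Over all 8498 genes, 39.6% were highest in that replicate. Tricarboxylic acid cycle genes had a median of 4.55 over 22 genes, led by mdh1aa, a malate dehydrogenase, with 7.36, 6.94, 6.63 and 6.32. Glycolytic genes had a median of 3.93 over 26, led by the enolase gene eno1a with 7.76 ± 0.20. The liver and red cell pyruvate kinase gene pklr varied most in that list, with 4.06, 2.95, 2.59 and 3.38.

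Creatine kinases buffer ATP at the myofibril, and fatty acid binding proteins carry fuel to mitochondria. Here ckmb read 6.94 ± 0.25 and ckma 6.44 ± 0.21, both muscle forms that fast skeletal muscle also uses, and the brain form ckbb read 6.78 ± 0.17. The heart type binding protein gene fabp3 read 6.55, 6.51, 6.31 and 6.27. Myoglobin, mb, read 2.94 ± 0.36. The fatty acid transporter gene cd36 varied most in this list, with 2.19, 0.42, 0.96 and 0.71, highest in replicate 1.

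Among sarcomere genes, 13 of 14 thick filament genes and 20 of 21 thin filament genes on the array were above background on all 4. Of all named genes, 80.7% were. Median levels of the thick and thin filament genes were 2.31 and 2.72. The highest thick filament probe was one for myl10, a regulatory light chain, with 7.72, 7.85, 7.64 and 7.53, although another probe of that gene lay 7.57 lower. The myosin heavy chain gene myh7l read 4.73, 5.02, 4.72 and 4.14, and mybpc3, the cardiac myosin binding protein C whose human form is a frequent cardiomyopathy gene, read 2.31 ± 0.32. Replicate 2 was the highest for 11 of the 13 thick filament genes, against 23.9% of all 8498 genes. It was also the highest for 9 of the 11 heart muscle markers, 4 of which are on both lists. In the thin filament, the sarcomeric actin gene actc1b read 6.63, 6.83, 6.64 and 6.90, tpm3 6.77 ± 0.22 and the troponin C gene tnnc1b 5.63 ± 0.15. The cardiac troponin C gene tnnc1a read 1.19, 1.40, 1.36 and 0.40, low in replicate 4.

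Z disc genes anchor the filaments and tie the sarcomere to the cytoskeleton. Desmin, desma, the intermediate filament of muscle, led that list with 6.54, 6.35, 6.39 and 6.04. It was followed by fhl2a with 5.16 ± 0.33 and ldb3a, which binds alpha-actinin, with 5.05 ± 0.22. The stretch-responsive ankyrin repeat gene ankrd1b was the most variable, with -1.36, -2.30, -1.37 and -3.02. Not above background on all 4 arrays were desmb and cryaba.

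Calcium handling and ion channel genes spanned from bright probes to the detection limit. Calmodulin genes led, with calm1a at 7.76, 7.38, 7.25 and 7.40. The sarcoplasmic calcium pump gene atp2a2a, which refills the store after each beat, read 5.07, 4.77, 4.93 and 4.35. The junctophilin gene jph2, which holds the store next to the plasma membrane, read 3.26 ± 0.11, and the cardiac calsequestrin gene casq2 2.06 ± 0.31. Channel genes were dim. The repolarizing potassium channel gene kcnh6a read -0.02 ± 0.47, the sodium channel gene scn5lab -3.02 ± 0.16, and the calcium channel subunit gene cacnb2a 2.01, 0.26, 0.30 and 1.1. Of the 32 genes of this list on the array, 26 were above background on all 4 control arrays. The share over all named genes was 80.7%, so this count says little. Among the 6 others were cacna1c, the pore of the L-type calcium channel, and slc8a1a, the sodium-calcium exchanger. The ryanodine receptor gene ryr2b was not among the genes named on the array. Junction genes were steady between arrays, with a median SD of 0.16 over 8 genes. They were led by ctnnb1, the adhesion and Wnt protein beta-catenin (5.45 ± 0.13), jupa, plakoglobin (5.22 ± 0.18), and gja1b, connexin 43 (5.41, 5.03, 5.13 and 5.0).

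Cardiac transcription factors had a median of 1.03, with 28 of 32 above background on all 4 arrays, against 80.7% of all named genes. The gene hand2, which zebrafish need to form heart muscle, read 3.06, 3.50, 2.75 and 2.63, and gata5, an early inducer of heart fate, read 1.85, 1.97, 1.74 and 1.23. Its relative gata6 read -0.85 ± 0.13, whereas gata4 was well above background on 1 of the 4 arrays. The T-box gene tbx2b, which restrains chamber identity at the canal between the chambers, read 3.65 ± 0.18. Highest stood nr2f1a, which sustains atrial identity in zebrafish and is also active in the nervous system, with 5.18, 4.90, 5.11 and 5.09, although its probes lay 7.54 apart. The pharyngeal and outflow factor tbx1 read 3.94 ± 0.33, and its probes lay 7.44 apart. The most variable of the list was the cofactor gene zfpm2b, with -3.96, -3.47, -2.5 and -2.54. The gene tbx5a was not among those named on the array.

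Hormone and natriuretic peptide genes were dim, with a median of -1.32 over 11 genes. Of the 11, 0 were among the 500 highest, which hold 5.88% of all genes, so this count says little. The apelin receptor gene aplnrb led with 3.01, 2.58, 2.5 and 2.08. The vasoconstrictor gene edn1 read 0.57, 0.94, 0.46 and 0.35. The calcium-regulating hormone gene stc1 varied least, with 0.16, 0.14, 0.12 and 0.12, an SD of 0.02. Renin, ren, was near the detection limit with -2.87, -3.88, -3.92 and -3.42.

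Of 34 endothelial and endocardial genes on the array, 24 were above background on all 4 control arrays, against 80.7% of all genes named there. The 24 had a median level of 1.29. Of them, 0 were among the 500 highest, which hold 5.88% of all genes, so this count says little. The sphingosine phosphate receptor gene s1pr1 led with 4.98, 4.13, 4.59 and 4.56. Next came the flow-responsive factors klf2a, with 3.60, 3.66, 3.0 and 3.55, and klf2b, with 3.32 ± 0.06. The ETS factor gene fli1 read 2.65, 3.02, 3.07 and 2.47, and clec14a 2.95 ± 0.22. The sprouting gene esm1 was the most variable of the list, low in replicate 2, with 0.18, -0.88, 0.39 and 0.10. The genes cdh5, vascular endothelial cadherin, and kdrl, a receptor for vascular endothelial growth factor, were well above background on 0 of the 4 arrays. The same held for 1246 of the 10536 genes named on the array. Since signal depends on the probe, this does not show that their transcripts were absent. The valve regulator nfatc1, the hyaluronan synthase has2 of the cardiac cushions and notch1b also missed background on at least 1 array. The list's summed signal was 0.109% to 0.120% on control arrays, where its genes were chosen, and 0.0785% to 0.115% on sorafenib arrays.

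Smooth muscle genes, which mark the bulbus arteriosus among other tissues, had a median of 1.56 over 10 genes. Smooth muscle actin, acta2, read 4.31, 2.87, 3.55 and 2.78, a 2.89-fold range with replicate 1 highest. The epicardial list had a median of 2.84 over 11 genes, and annexin and keratin genes that other epithelia also express led it, anxa2a with 5.44 ± 0.37 and krt15 with 4.12 ± 0.43. The more specific epicardial factors were low. The gene tcf21 read -1.62, -1.59, -1.82 and -1.91, wt1b read -0.12 ± 0.05, and tbx18 and wt1a missed background on at least 1 array. The retinoic acid synthesis gene aldh1a2 read 2.61 ± 0.15. In the matrix list, fibrillar collagen genes led, with col1a2 at 7.13, 6.81, 6.62 and 6.63 and col1a1b at 5.78 ± 0.10. The collagen-binding protein gene sparc read 5.07, 5.71, 5.79 and 5.71, low in replicate 1.

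Globin genes were bright on all 4 arrays. The erythroid list had a median of 0.38, against 1.14 for all 8498 genes. The globin genes hbae3 and hbae1.1 read 8.08, 6.83, 7.76 and 7.84 and 7.22, 5.99, 7.09 and 6.89, and hbbe2 read 6.81, 5.80, 6.48 and 6.98. All 3 were lowest in replicate 2. Of 22 erythroid genes above background, 13 were lowest in replicate 2, against 20.7% of all 8498 genes. A range over 2-fold was found for 11 of the 22, against 13.6% of all genes. The erythroid list held 0.714%, 0.418%, 0.703% and 0.787% of summed named signal in replicates 1 to 4, and 0.678% to 0.814% on sorafenib arrays. The heme synthesis gene alas2 read 0.36, -0.70, 1.02 and 0.51, and the membrane skeleton gene epb41b, the most variable of the list, read 0.40, -1.55, 0.58 and 0.46. Replicate 2, low in blood genes, was also the array on which most heart muscle markers were highest, and the part of blood content in that was not tested. Leukocyte genes were dim, with a median of -0.38 over 26 genes, 0.0677% to 0.0869% of summed signal, and lcp1, the leukocyte plastin, at 2.26 ± 0.21.

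Genes of the fast skeletal muscle and skin lists were bright at the median on all 4 arrays. The first of these lists also holds a slow muscle myosin gene, its most variable member. Of 37 fast skeletal muscle genes on the array, 36 were above background, against 80.7% of all named genes. The 36 had a median of 4.81. Among the 500 highest, which hold 5.88% of all genes, were 18 of the 36 (50%). The fast troponin T gene tnnt3b read 8.26, 8.21, 7.95 and 8.05, the fast light chain gene mylpfa 7.53, 7.92, 7.42 and 7.81, and the parvalbumin gene pvalb2 7.94, 7.48, 7.34 and 7.24. These genes held 2.63% to 3.04% of summed signal, against 2.52% to 2.95% on sorafenib arrays. All 33 skin and pharyngeal epithelium genes were above background, with a median of 4.12. The outer-layer keratin gene krt4 read 8.95, 8.54, 8.20 and 8.37, and krt5, a basal keratin, 7.94, 7.83, 7.70 and 7.59. The skin list held 2.09% to 2.25% of summed signal, against 2.0% to 2.41%.

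Neural genes had a median of 2.81, with 44 of 47 above background, against 80.7% of all named genes. Tubulin genes led, among them tubb2b with 7.35, 7.34, 7.24 and 7.36 and tubb5 with 7.1, 7.01, 7.0 and 7.05, and other cell types use tubulins too. The glial fatty acid binding protein gene fabp7a read 6.24, 5.57, 6.18 and 6.13. The neuronal RNA-binding protein gene elavl3 stood near the limit of detection with -2.22, -3.00, -2.91 and -2.17. Neural genes held 0.738% to 1.02% of summed signal on control arrays and 0.373% to 0.953% on sorafenib arrays. Of the 44, 24 were lowest in replicate 2, against 20.7% of all 8498 genes. In the cartilage and pharyngeal arch list the cartilage collagen gene col9a2 read 7.25 ± 0.11 and the matrilin gene matn4 5.96 ± 0.23, while the median over 25 genes was 0.82. Of 33 eye and lens genes on the array, 8 were above background on all 4, 7 on some and 18 on none, and the lens crystallin gene cryaa and the photoreceptor genes gnat1, gnat2, opn1mw1 and opn1sw2 were among the 25 that missed it.

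Liver genes were present and differed between arrays. The retinol carrier gene rbp4 read 8.46, 7.86, 7.37 and 7.08, and fabp10a, the liver fatty acid binding protein, read 7.11, 5.91, 5.29 and 5.41. Of 30 liver and plasma protein genes above background, 26 were highest in replicate 1, against 39.6% of all 8498 genes. A range over 2-fold was found for 24 (80.0%), against 13.6% of all genes. The list held 1.07% of summed signal in replicate 1, 0.732% in replicate 2, 0.565% in replicate 3 and 0.588% in replicate 4. On sorafenib arrays it held 0.712% to 1.32%. The liver enzyme gene hpda, of tyrosine breakdown, varied most, with -0.74, -2.65, -3.94 and -1.60.

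The yolk, pancreas and gut list differed most of all 36 lists between control arrays, with a median SD of 1.29 over 29 genes. The trypsin gene prss1 read 6.18, 2.13, 4.37 and 2.45, the chymotrypsin genes ctrb.1 and ctrl read 5.92, 1.85, 3.88 and 2.87 and 6.19, 2.44, 4.23 and 3.24, and the elastase gene cela1.6 read 6.42, 1.87, 4.01 and 3.23. These are enzymes of the exocrine pancreas. Each was highest in replicate 1 and lowest in replicate 2. In all, 22 of the 29 genes were highest in replicate 1, against 39.6% of all 8498 genes. A range over 2-fold was found for 22 (75.9%), against 13.6% of all genes. The list held 0.573% of summed signal in replicate 1 and 0.142%, 0.207% and 0.171% in replicates 2 to 4, against 0.293% to 0.865% on the sorafenib arrays. Of the fatty acid binding protein genes of the intestinal lining, fabp2 read 3.40 ± 0.72 and fabp1b.1 read 5.86, 3.37, 3.65 and 4.30. The vitellogenin genes vtg2, vtg4 and vtg5 of yolk missed background on at least 1 array. The part of tissue around the heart in these values was not tested.

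**Figure D3:**
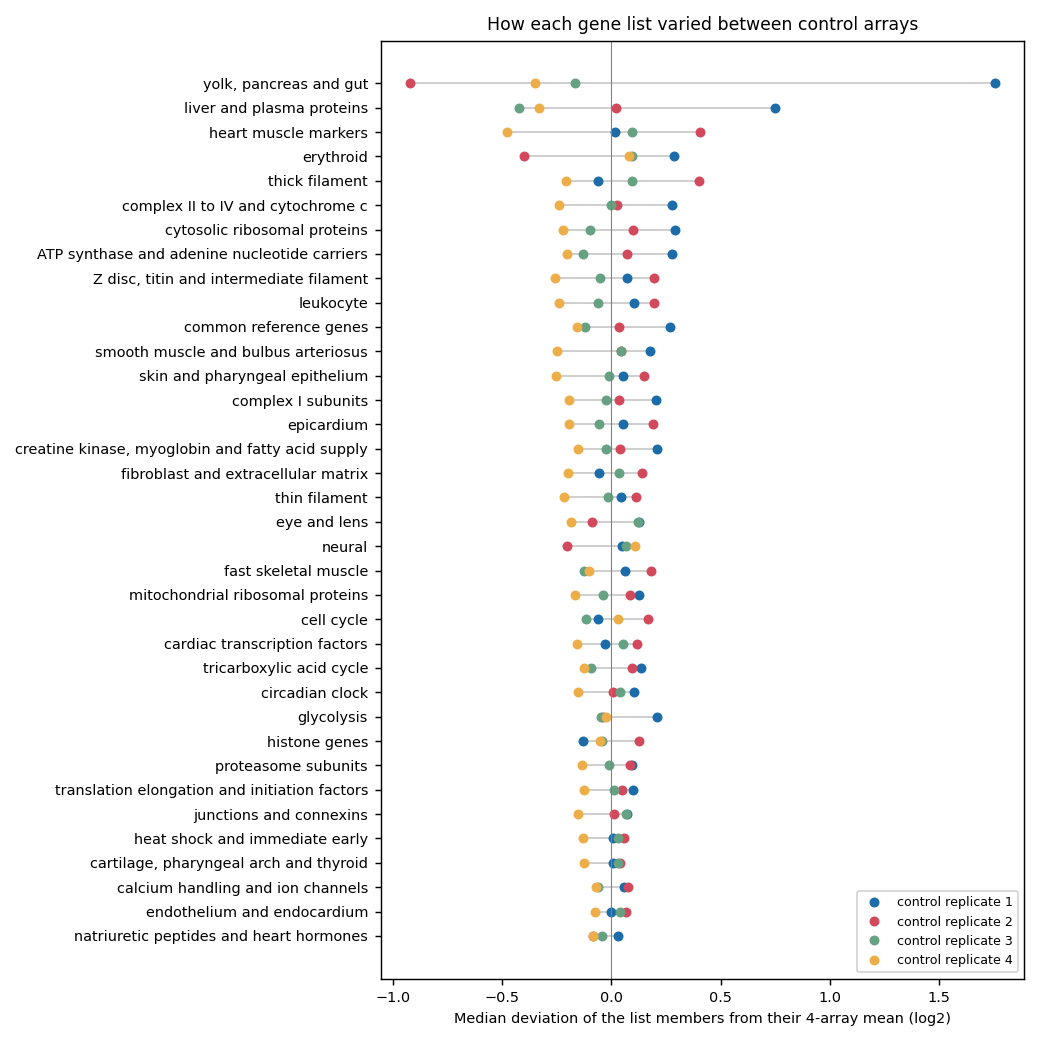
Median deviation of the members of each list from their own 4-array mean, in log2 units, with a coloured point per control replicate and lists ordered by the distance between their extreme points. The yolk, pancreas and gut list lies at 1.76 in replicate 1 and -0.92 in replicate 2, the liver list at 0.75 in replicate 1, and heart muscle markers at 0.41 in replicate 2 and -0.48 in replicate 4.

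Proliferation genes were measured throughout, with 40 of 42 cell cycle genes above background on all 4 arrays, against 80.7% of all named genes. The cell cycle median was 2.47. Highest among replication factors was mcm7, a subunit of the replicative helicase, with 5.49, 6.06, 5.60 and 5.89, and mcm2 read 4.29, 4.89, 4.42 and 4.54. Of the 40, 26 were highest in replicate 2, against 23.9% of all 8498 genes. The cyclin gene ccne2 was the most variable, with -3.00, -1.13, -1.95 and -1.41. Chaperone and immediate early genes had a median of 2.92 over 42 genes. They held 1.31% to 1.39% of summed signal on control arrays and 1.43% to 1.80% on sorafenib arrays. The endoplasmic reticulum chaperone gene hspa5 read 5.40, 6.26, 5.63 and 5.82, and hsp90aa1.1, the muscle HSP90 needed to fold myosin in zebrafish, read 0.85, 2.41, 1.63 and 1.67. Both were lowest in replicate 1 and highest in replicate 2.

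Of 25 clock genes, 10 (40%) had a range over 2-fold, against 13.6% of all genes and 21.5% of the 3498 dimmest genes. The light-induced photolyase-family gene cry5 read 0.92, 0.00, -1.25 and -3.24, a 17.9-fold range. The output factor gene tefa read 5.80, 4.97, 4.22 and 3.45, a 5.08-fold range. The light-induced gene per2 read 1.14, 1.1, 0.94 and -0.91, and nr1d1, a repressor of the loop, read 1.61, 2.76, 2.66 and 2.0. All but nr1d1 were lowest in replicate 4. Other members were steady, per1b with 5.05, 5.01, 5.13 and 4.86 and csnk1db, a kinase of the clock proteins, with 4.80 ± 0.16.

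The spread between control arrays was small for most transcripts. The median SD was 0.27 over 22690 probes and 0.25 over 8498 genes, and 4153 probes (18.3%) and 1154 genes (13.6%) had a range over 2-fold. Without replicate 1 the probe count was 1882, and without replicate 4 it was 2539. Dim genes spread more. A range over 2-fold was found in 4.6% of the 500 highest genes, 5.8% of the next 1500, 9.7% of the next 3000 and 21.5% of the other 3498. For the 21382 probes above background on all 8 arrays, the median SD was 0.27 within the control group and 0.35 within the sorafenib group.

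**Figure D4:**
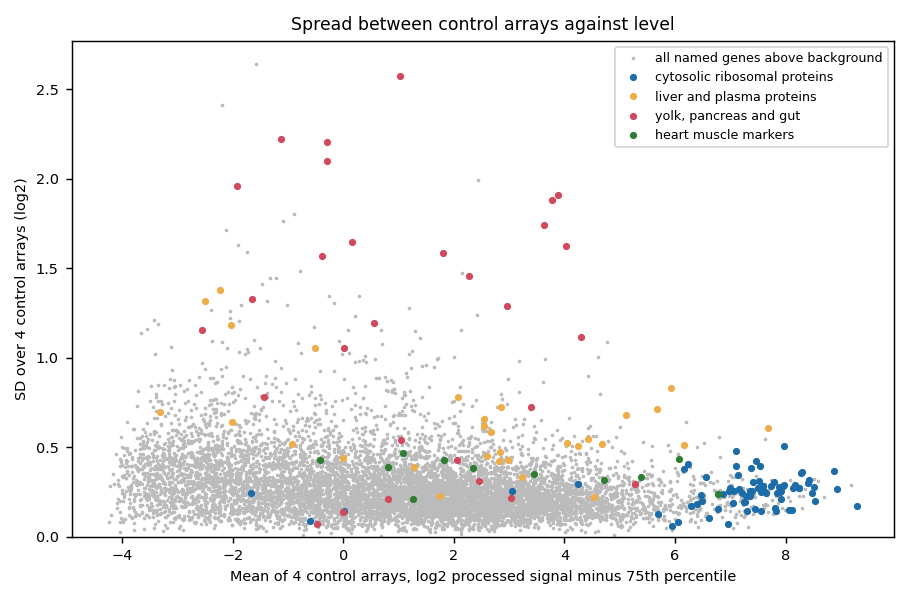
SD over the 4 control arrays (log2) against mean level (log2 processed signal minus the 75th percentile), with a grey point per named gene and coloured points for 4 lists. Yolk, pancreas and gut genes reach an SD of 2.57, while the 76 ribosomal protein genes stay at or below 0.51.

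The 15 most variable named genes were mostly digestive enzymes. The most variable was c6ast4, an astacin-type protease, with 2.1, -3.69, -1.47 and -3.28, a 55.2-fold range. The elastase gene ela3l read 4.49, -1.67, 1.00 and 0.27, a 71.5-fold range, amy2a, pancreatic amylase, read 2.89, -1.90, -0.54 and -1.64, and the lipase gene cel.2 read 2.11, -2.86, -2.18 and -1.57. The chitinase genes chia.1 and chia.2 and the chymotrypsin genes ctrb.2 and ctrb.3 had SDs of 1.96, 2.1, 2.41 and 1.99. All 15 were highest in replicate 1, against 39.6% of all 8498 genes. Picked by their SD over these same arrays, they are no test of that replicate. Also among the 15, not all of which are described here, were the clock gene cry5 and hamp. The latter, the iron hormone hepcidin of the liver, read 1.2, -0.63, -2.41 and -2.55. Among the 100 most variable genes, 19 belonged to the yolk, pancreas and gut list, which holds 29 of all 8498 genes. When replicate 1 was left out, 10 did, and 52 of the 100 genes were shared.

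**Figure D5:**
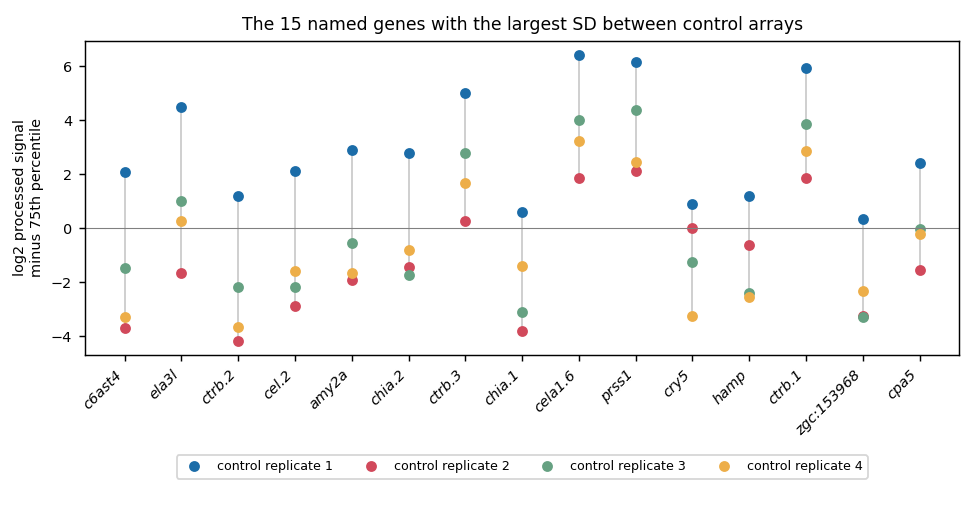
Level of the 15 named genes with the largest SD over the control arrays, as log2 processed signal minus the 75th percentile, with a coloured point per replicate and a grey line from the lowest to the highest. Replicate 1 is the highest point for each of the 15, and the widest range is that of ela3l, from -1.67 to 4.49.

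Among the 500 highest genes the steadiest was ptp4a1, a membrane-bound phosphatase, with 5.93, 5.92, 5.93 and 6.0 (SD 0.03). Next came ndufs3, a core subunit of complex I, with 5.17, 5.18, 5.14 and 5.10. The small modifier sumo2b read 5.83 ± 0.05, prothymosin ptmaa 6.41 ± 0.05, the homeobox gene meis2b 5.02 ± 0.05, rps10 5.95 ± 0.06 and the BMP target id1 4.97 ± 0.06. Common reference genes had a median SD of 0.24 over 23 genes, close to the 0.25 of all genes, and actb1 read 8.06, 7.73, 7.51 and 7.49. The isoform gene eef1a1a, in the same list, read 1.18, 0.12, 0.43 and 1.2.

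Replicates 1 and 2 were hybridised on one slide and 3 and 4 on another. The control arrays of the slides were compared by limma across 25059 probes, with the spread estimated from all 8 arrays. After Benjamini-Hochberg adjustment 0 were called (0%), the smallest adjusted p being 0.998. At an unadjusted p below 0.05 there were 506 probes (2.02%). Pairs on one slide differed by a median of 0.31 (replicates 1 and 2) and 0.25 (replicates 3 and 4) per probe, and the 4 pairs on different slides by 0.31 (1 and 3), 0.38 (1 and 4), 0.25 (2 and 3) and 0.30 (2 and 4). A limma fit with slide and group as additive terms estimated the slide difference over all 8 arrays, sorafenib arrays included. It called 2 probes higher on the slide of replicates 3 and 4, with a smallest adjusted p of 0.0305.

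To say for which transcripts the baseline differs from the other group, control was set against sorafenib by limma over the same 25059 probes. It called 0 (0%), with a smallest adjusted p of 0.117. At an unadjusted p below 0.05, 993 probes (3.96%) were higher and 785 (3.13%) lower with sorafenib. Of the 8498 genes of the control hearts, 632 met that unadjusted limit and 0 the adjusted one. The level of stc1, with its SD of 0.02 over control arrays, was 0.13 there and -1.20 on the sorafenib arrays, and nppa was at 1.27 and 2.51, neither past the adjusted threshold. For the prss1 gene the sorafenib mean was 5.38 against 3.78 in control, while the 4 control values alone spanned 2.13 to 6.18.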

How the data were processed

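Heart RNA of 8 samples carried the dye Cy3 and was measured on one-colour Agilent arrays. The scanner files deposited by the authors hold linear spot intensity, background-subtracted by the scanning software and not normalized between arrays. Per the file headers this was Feature Extraction 10.1.1.1 with annotation build danRer5, while the submitters' processing notes name version 8.0. A table of log2 values deposited by the authors holds 21383 probes, among them all 21382 that were well above background on all 8 arrays. Its columns matched their own arrays best (r 0.975 to 0.985), with medians of 7.20 to 7.22 and the same lowest and highest value in each. Its centring is unknown, and it served as an alternative only.

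Control spots and 6 to 15 outlier spots per control array were left out, spots of a probe were averaged, and the array's 75th percentile (94.6 to 151.3 on control arrays) was subtracted on the log2 scale (Python 3.11.15). A fit drops a probe's value where its only spot was left out. Median signals replaced mean signals for the normexp alternative, since the files used here hold no mean. Of 43603 probes, 19212 carry a RefSeq accession and 15163 (34.8%) were named through a RefSeq gene table. Another 7356 carry Ensembl transcript numbers and stayed unnamed. No coordinates or sequences are given. Fits by lmFit and eBayes of limma 3.58.1 under R 4.3.3 took probes well above background on at least 4 of 8 arrays, with Benjamini-Hochberg adjustment and a threshold of 0.05.

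The rule named the 30 highest genes, the 15 with the largest SD, the 10 with the smallest SD among the 500 highest, for each list the 4 highest members and the most variable one, and a set of fixed genes, 220 in all. Other list members were chosen after their values were seen. The members and the 36 lists were chosen with earlier results of these data known, and 36 genes are on more than 1 list. One gene that the rule names is not reported here.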

Additional observations from a re-analysis of the deposited data

Results flagged for a closer look

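Among named genes and list medians, 16 had a single control array far from the other 3, by a Dixon ratio above its 95% critical value. Chance flags about 1 in 20 such groups. With 220 genes and 36 list medians looked at, the number flagged is near what that rate gives. Highest single values were those of fth1a in replicate 1 (8.75), ptp4a1 in replicate 4 (6.0) and the retinaldehyde binding protein gene rlbp1b in replicate 1 (-2.22). Lowest single values in replicate 1 were those of pafah1b3 (5.09), sparc (5.07) and the mitochondrial ribosomal gene mrpl13 (-2.96). In replicate 2 they were those of epb41b (-1.55) and fabp7a (5.57), in replicate 3 that of tubb2b (7.24), and in replicate 4 those of the plakophilin gene pkp3a (4.02) and the homeobox gene dlx3b (3.69). For ptp4a1, tubb2b and pafah1b3 the SD over all 4 arrays was at most 0.06, so the gap is small in size.

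Among lists, the median of the yolk, pancreas and gut genes stood at 2.57 in replicate 1, against 0.51 to 0.76 on the other arrays. The erythroid median stood at -0.01 in replicate 2, against 0.48 to 0.58. The junction median stood at 3.66 in replicate 4, against 4.03 to 4.06. The cell cycle median stood at 2.73 in replicate 2, against 2.42 to 2.46. The proteasome median stood at 4.09 in the same array, against 3.93 to 3.96. However, the median deviation of proteasome genes from their own means was 0.09 in replicate 1 and 0.09 in replicate 2.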

How the results depend on the processing

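Of the 30 highest genes, 30 remained after quantile scaling, after scaling to detected probes and in the authors' deposited table, 26 after normexp with quantile scaling, 21 with the mean over a gene's probes and 29 to 30 without any 1 control array. Over the filters tried, the number of probes (transcripts above background in control hearts) ranged from 21382, where the sorafenib arrays had to pass too, to 29210, by the flag for positive and significant signal. For the spread between control arrays, the count of probes with a range over 2-fold, 4153, was 577 after normexp with quantile scaling, where both choices changed at once, 1073 in the authors' deposited table, which holds 21383 probes, and 1882 to 3343 without 1 control array, where 3 arrays give a smaller range by construction. For sorafenib, limma called 0 probes, 2 after quantile scaling, 2 after normexp with quantile scaling and 7 in the authors' deposited table, and the cause was not tested. It called 0 to 1 without 1 array (1 without control replicate 3) and 0 with slide as a block. The slide contrast among control arrays called 0 in each setting, and the additive fit over all 8 arrays called 2. With replicate number as a replicate block, 0 probes passed and 3293 had an unadjusted p below 0.05, against 1778 without it. Same-numbered arrays deviated together with r of 0.30, 0.48, 0.03 and 0.73, and with 1 pair under 0.1 the samples were not treated as paired. Every control array, but not every sorafenib array, correlated best with its own number, a hint from the data and not from the design. Against their SD, 145 of the 220 named levels moved with normexp and quantile scaling, 167 with the mean over probes, 37 of 216 in the authors' table and 2 with quantile scaling.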

Other observations

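The hormone genes below were picked after their values were seen and stand for no group. Of the pituitary, 3 genes are given, each highest in replicate 3, with gh1, growth hormone, at -2.93, -2.09, 0.24 and -0.50, smtlb, somatolactin, at -0.00, 0.84, 2.41 and 1.49, and pomca, the precursor of corticotropin, at 0.22, 0.47, 2.03 and 1.03. The hypothalamic hormone gene avp read -3.76, -0.13, -0.89 and -2.18.

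Of the pancreatic islet, 3 further genes are given. Insulin, ins, read 1.99, 0.76, -0.90 and 0.39, glucagon, gcga, 1.33, -0.91, -0.77 and 0.38, and the somatostatin gene sst2 3.57, 2.24, -0.25 and 1.63, each highest in replicate 1. Of these, ins and sst2 were lowest in replicate 3, whereas gcga was lowest in replicate 2, as was the exocrine enzyme gene prss1. Of the 30 brightest probes of all, 11 had no gene name here, and 1 of these was brighter than the rps2 probe.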
